A study of Mus musculus with 9 samples.

Results

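The comparison described here set reactive cultures, grown from mouse cortex dissected after a stab wound, against non-neuronal cells taken directly from uninjured cortex. Its members are the 6 libraries of these 2 groups, 3 a side, of the 9 in the series, and all 18093 genes that passed a filter on low counts. The libraries were chosen by sample label, while the gene lists used below were drawn up with earlier results of these data known. All mice were wild-type C57BL/6J of 2-3 months. The uninjured libraries came from intact cortex that was dissociated with papain and sorted by flow cytometry, which left out debris, dead cells and a neuronal fraction that carried CD171, the product of L1cam, but lacked ACSA-2, the product of Atp1b2. The cultures began as lesion cores, made with a surgical lancet, and were kept in DMEM/F12 medium with 10% fetal bovine serum and B27 supplement. The whole culture was collected, unsorted, so injury, culture, serum and the sort all differ between the groups and cannot be told apart. For the cultures, the sample labels give dissection 1 day after injury, as does the series' design text (24 h). The labels give 6 days in culture, whereas the design text gives 8 days. The third group, injured cortex sorted without culture, served to estimate the spread and is quoted only for orientation. Its labels give dissection 1 day after injury, whereas the design text gives 3 days. Each library is called a biological replicate, without a statement of how many animals it holds. In such bulk RNA, fewer cells of a type and less RNA per cell cannot be told apart.

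Microglia, the resident macrophages of the brain, carry a surveillance programme in healthy tissue (P2ry12, Tmem119) and replace it, around damage or lipid-rich debris, by a phagocytic programme with Spp1, Gpnmb, Lpl and Lgals3. Astrocytes clear glutamate and buffer potassium in healthy cortex and turn on Gfap and Vim after injury, and some glia regain division and progenitor genes. Serum and stiff plastic are known to activate serum response factor (SRF) and the Hippo pathway effectors YAP and TEAD in adherent cells, which drive contractile and matrix genes.

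Total counts were 12205049 to 18577561 per uninjured library and 16667883 to 24302770 per culture. Across genes, log2 CPM (library-scaled counts) correlated with a Pearson's r of 0.949 to 0.975 within uninjured cortex, 0.979 to 0.984 within the cultures and 0.738 to 0.761 between the groups. The 100 most abundant genes took 29.1% to 31.6% of counts per uninjured library against 44.5% to 45.9% per culture. Uninjured replicates 2 and 3 stood apart: together the 1767 genes for olfactory and vomeronasal receptors held 175 and 146 CPM there, against 44.0 CPM in uninjured replicate 1 and 14.3 to 16.3 CPM in the cultures, and the predicted gene Gm10800 was at 2956 and 19768 CPM, against 5.18 CPM in replicate 1. Among uninjured libraries replicate 1 had Xist, at 28.2 CPM, which was no higher than 0.0819 CPM elsewhere among the 6, all of which had the Y-linked Ddx3y. Results are therefore given also without uninjured replicates 2 and 3 where that moves them. That fit takes the spread of the single library left from the other groups.

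Levels are CPM with TMM scaling (trimmed mean of M values), printed for replicates 1, 2 and 3 in that order, and changes are log2 fold changes, culture minus uninjured cortex, ± SE. With n = 3 per group, adjusted p-values come from the quasi-likelihood test of edgeR over all genes tested. The SE was taken as the size of the log2 fold change divided by the square root of the F statistic of this test. A gene is called higher or lower at an adjusted p under 0.05. Of the 18093 genes, 10954 were called, which is 60.5%. Of all genes 27.5% (4969) were higher and 33.1% (5985) lower in the cultures, and in 69.2% the 3 cultures lay wholly above or wholly below the 3 uninjured libraries. Calls with a log2 fold change of at least 1 in size numbered 3722 higher (20.6%) and 5381 lower (29.7%). At a size of 5 or more there were 379 higher and 1131 lower. With that many calls, a share of a gene list is read against these percentages. Without uninjured replicates 2 and 3 the calls were 6997, with 3043 higher and 3954 lower, of which 2935 and 3741 were also in the full set. The median log2 fold change over all genes was -0.17. It moved by -0.20 with upper-quartile scaling and by -0.42 with library sizes taken without the 100 most abundant genes, where 31.6% of calls were higher in place of 45.4%.

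**Figure D1:**
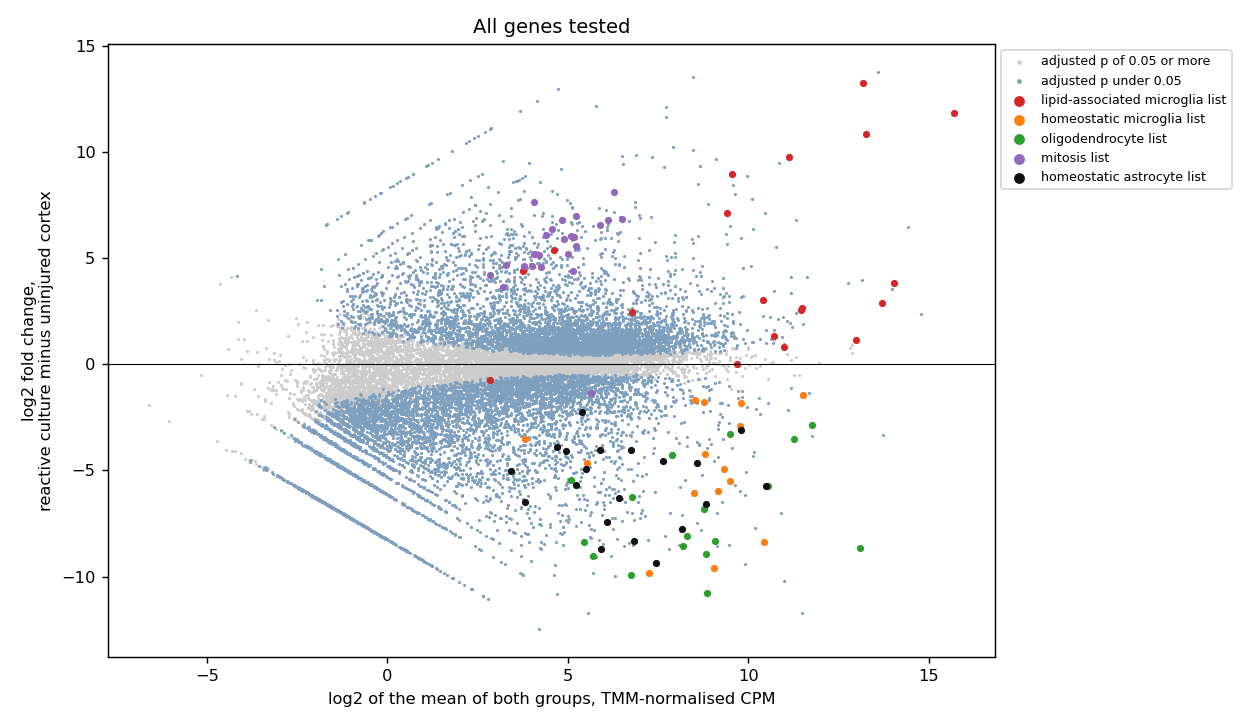
Each point is 1 of the 18093 genes, by the log2 of its mean TMM-normalised CPM in both groups (x axis) and its log2 fold change, reactive culture minus uninjured cortex (y axis). Genes of 5 lists are coloured; lipid-associated microglia and mitosis genes lie mostly above 0, and homeostatic astrocyte, homeostatic microglia and oligodendrocyte genes lie below 0. Straight lines of points at the lower left are genes with 0 or a few counts in the cultures.

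Spp1 was the most abundant transcript of the cultures. Spp1, which encodes the secreted matrix protein osteopontin, took 7.27%, 8.43% and 8.10% of all counts in the 3 cultures and 0.00291% to 0.00441% in uninjured cortex. After it ranked Fth1 and Ftl1 (the ferritin chains), Lyz2 (lysozyme of myeloid cells), the lysosomal proteases Ctsb and Ctsd, Mmp12 (macrophage elastase), Lgals3 (galectin-3), Gpnmb and the peroxidase Prdx1. These 10 genes held 26.5% to 27.4% of culture counts and 2.00% to 2.61% of uninjured counts. In uninjured cortex the 10 most abundant included Cst3, Fth1, Malat1, Gm10800, Ctss, Trf, Tmsb4x, Actb and Apoe, with the Gm10800 signal confined largely to replicates 2 and 3. Together the 10 held 9.84% to 11.9% of counts there and 6.37% to 7.16% in the cultures.

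Ranked by change among genes with at least 10 CPM, the 12 highest named genes were Mmp12, Atp6v0d2, Gpnmb, Crct1, Mmp10, Prl2c2, Mmp13, Prss46, Spp1, Timp1, Krt19 and Raet1e. Mmp10, Crct1, Prss46, Krt19 and Raet1e had 0 counts in all uninjured libraries, so their difference is a lower bound, taken against 3 counts in the whole group. That bound was at least 405-fold higher for Mmp10, 612-fold for Crct1, 292-fold for Prss46, 173-fold for Krt19 (an epithelial keratin) and 162-fold for Raet1e (a ligand of the lymphocyte receptor NKG2D, with near-identical relatives). Prl2c2 had 1 uninjured count against 5325 in the cultures, a ratio per total count of 3980 (95% exact counting interval 713 to 157000), and belongs to a cluster of near-identical prolactin-like genes among which reads may be split. Its 3 cultures were at 243, 51.6 and 36.2 CPM, so replicate 1 was the highest. With few uninjured counts its fitted change is no bound and is not given. The 12 lowest were Abca8a, Atp13a5, Pantr2, Cd209f, Mog, Ptgds, Olfml1, Slc6a20a, Hapln2, Igkc, Sgk2 and Slc2a5. Abca8a, Pantr2 and Cd209f had 0 counts in the cultures, which places them at least 961-fold, 342-fold and 313-fold lower. Mog, Hapln2 and Olfml1 stood at -10.77, -9.92 and -9.97 on the log2 scale; for Mog, a myelin protein, the change was -12.12 without culture replicate 2. Of all genes tested, 508 had 0 counts in every culture and 39 had 0 counts in every uninjured library; 208 and 29 of these reached a mean of 1 CPM in the other group.

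Genes of the lipid-associated phagocyte programme were higher in the cultures almost throughout. Of 19 genes on that list, 17 were called higher, against 27.5% of all genes, with a median of 3.03, and 14 without uninjured replicates 2 and 3. Spp1 was at 25.8, 29.7 and 32.8 CPM in uninjured cortex and 97030, 117770 and 105650 CPM in the cultures. Every culture exceeded every uninjured library by more than 3 orders of magnitude, and the change was 11.82 ± 0.92, adjusted p = 7.1e-07. Gpnmb, a membrane glycoprotein of lysosome-stressed macrophages, was at 1.6, 2.47 and 1.59 CPM in uninjured cortex and 22608, 15744 and 17586 CPM in the cultures (13.26 ± 0.74, adjusted p = 5.3e-08). Lgals3, a lectin that binds damaged membranes, was at 7.68, 10.4 and 13.2 CPM in uninjured cortex and 17860, 20415 and 20525 CPM in the cultures (10.88 ± 0.76, adjusted p = 2.9e-07). In both genes the 3 cultures were close together and far above uninjured cortex. Lpl, the enzyme that hydrolyses lipoprotein triglycerides, was at 4.75, 5.49 and 5 CPM in uninjured cortex and 5698, 4000 and 3637 CPM in the cultures (9.77 ± 0.59, adjusted p = 9.8e-08). Igf1, a growth factor that microglia can secrete, was at 1.44, 3.33 and 4.09 CPM in uninjured cortex and 1399, 1610 and 1467 CPM in the cultures (8.98 ± 0.63, adjusted p = 3.0e-07; 10.01 without uninjured replicates 2 and 3). Smaller differences were found for the scavenger-endosome protein Cd68 (2.67 ± 0.46), the cathepsins Ctsb (3.83 ± 0.54) and Ctsd (2.91 ± 0.44) and the receptor tyrosine kinase Axl (2.49 ± 0.26). Apoe, the main brain lipid carrier, was at 5445, 4885 and 4940 CPM in uninjured cortex and 11177, 11538 and 10730 CPM in the cultures (1.13 ± 0.32, adjusted p = 0.0097). Tyrobp, the adaptor of Trem2, had a change of 1.32 ± 0.34, adjusted p = 0.0053. Neither call held without uninjured replicates 2 and 3, where 1 uninjured library was left and the change of Apoe was 1.03. Trem2 itself, the receptor upstream of this programme, was at 732, 913 and 824 CPM in uninjured cortex and 726, 851 and 929 CPM in the cultures. Its groups overlapped with TMM scaling (0.02 ± 0.30, adjusted p = 0.96), and Cst7 was also not called. The change of Trem2 ranged from -0.40 to 0.18 over the alternatives and was below 0 under every other scaling. As summed CPM of the library total, the list took 174256 to 176954 in the cultures and 19035 to 19112 in uninjured cortex.

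Genes of the microglial surveillance programme were lower. These bulk values do not show whether the same cells held both programmes. All 15 homeostatic microglia genes were called lower, against 33.1% of all genes, with a median of -4.65 and a range of -9.85 to -1.44; 14 were so without uninjured replicates 2 and 3. P2ry12, the receptor that steers microglial processes to ADP, was at 3470, 3016 and 1851 CPM in uninjured cortex and 8.6, 11.7 and 4.62 CPM in the cultures (-8.38 ± 0.68, adjusted p = 9.5e-07). Tmem119, a microglia-specific membrane protein, was at 1690, 1316 and 1182 CPM in uninjured cortex and 33.3, 29.3 and 31.1 CPM in the cultures (-5.48 ± 0.44, adjusted p = 9.5e-07). The cultures lay below uninjured cortex by more than 2 orders of magnitude for P2ry12 and by less for Tmem119. Siglech (-9.62 ± 0.53) and the fructose transporter Slc2a5 (-9.85 ± 0.55) were lower still. Csf1r, the receptor on which macrophages depend for survival, stayed abundant, at 1565, 1456 and 1141 CPM in uninjured cortex and 510.2, 335 and 313 CPM in the cultures (-1.85 ± 0.32, adjusted p = 0.00038). Aif1, the cytoskeletal protein Iba1, had a change of -2.76 ± 0.31, adjusted p = 1.3e-05. The pan-leukocyte gene Ptprc was nearly level at 93, 88 and 97.2 CPM in uninjured cortex and 161, 126 and 133 CPM in the cultures (0.59 ± 0.23, adjusted p = 0.04), a call lost when any 1 uninjured or culture library, or injured replicate 1, was left out, and under each other scaling and filter.

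Transcripts of multinucleated macrophages and osteoclasts formed part of the increase. Of 15 genes on this list 12 were tested and 10 were higher (median 3.21), the same number as without uninjured replicates 2 and 3. Mmp12 was at 1.55, 1.44 and 2.26 CPM in uninjured cortex and 25243, 26124 and 22535 CPM in the cultures (13.79 ± 0.72, adjusted p = 3.8e-08). Atp6v0d2, a proton pump subunit of fused macrophages, had 3 counts in uninjured cortex against 32020 in the cultures, a ratio of 7970 (95% exact counting interval 2730 to 38700). Acp5, tartrate-resistant acid phosphatase, was at 1.55, 1.44 and 1.28 CPM in uninjured cortex and 136, 168 and 217 CPM in the cultures (6.92 ± 0.61, adjusted p = 1.8e-06). All 3 cultures were above every uninjured library for each of these genes. The fusion receptors Dcstamp and Ocstamp were also called higher. The bone protease Ctsk reached 2.45 ± 0.27, the membrane protease Mmp14 2.53 ± 0.23 and the inhibitory myeloid receptor Cd200r1 3.88 ± 0.30. Nfatc1, the transcription factor that osteoclast formation requires, was at 22.5, 27.8 and 26.2 CPM in uninjured cortex and 30.8, 18.7 and 22.1 CPM in the cultures, with overlapping groups (-0.10 ± 0.23, adjusted p = 0.73), and Mmp9 was likewise not called. In injured cortex Mmp12 was at 6.51, 12.1 and 3.95 CPM and Atp6v0d2 averaged 0.508 CPM.

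Genes of other myeloid, lymphoid and red blood cells differed by list. Border macrophage genes split, with 7 of 12 higher (Ms4a7 4.93 ± 0.54, Folr2 4.95 ± 0.54, the chemokine Pf4 3.81 ± 0.36) and 5 lower, 1 of them without uninjured replicates 2 and 3. Among the lower ones, Cd209f, a lectin of perivascular macrophages, fell from 6.41, 12.2 and 19.2 CPM to 0 counts. Of 15 monocyte and neutrophil genes 9 were lower and 2 higher (5 and 3 without uninjured replicates 2 and 3). Csf3r, the receptor for granulocyte growth factor, had a change of -3.60 ± 0.29, adjusted p = 8.2e-07, whereas the collagenase gene Mmp8 was higher at 1.6, 2.07 and 3.23 CPM in uninjured cortex and 157, 162 and 174 CPM in the cultures (6.17 ± 0.38, adjusted p = 1.3e-07). Ighm, the heavy chain of immunoglobulin M, was at 340.5, 203 and 211 CPM in uninjured cortex and 1.66, 2.07 and 1.17 CPM in the cultures (-7.25 ± 0.46, adjusted p = 1.4e-07). Of the 15 lymphocyte genes 9 were lower (8 lower and 2 higher without uninjured replicates 2 and 3), and 1, the T-cell receptor gene Trac, was called higher at 1.25, a call lost without uninjured replicate 1, without culture replicate 2, without uninjured replicates 2 and 3, with limma-voom and with library sizes taken without the 100 most abundant genes. All 5 erythrocyte genes were lower (median -8.55; -9.19 without culture replicate 3). Summed, the 5 genes took 3375, 3866 and 5353 CPM of the library total in uninjured cortex, against 6.95, 2.80 and 5.58 CPM in the cultures. The haemoglobin genes are near-identical copies, so their single values are uncertain.

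**Figure D2:**
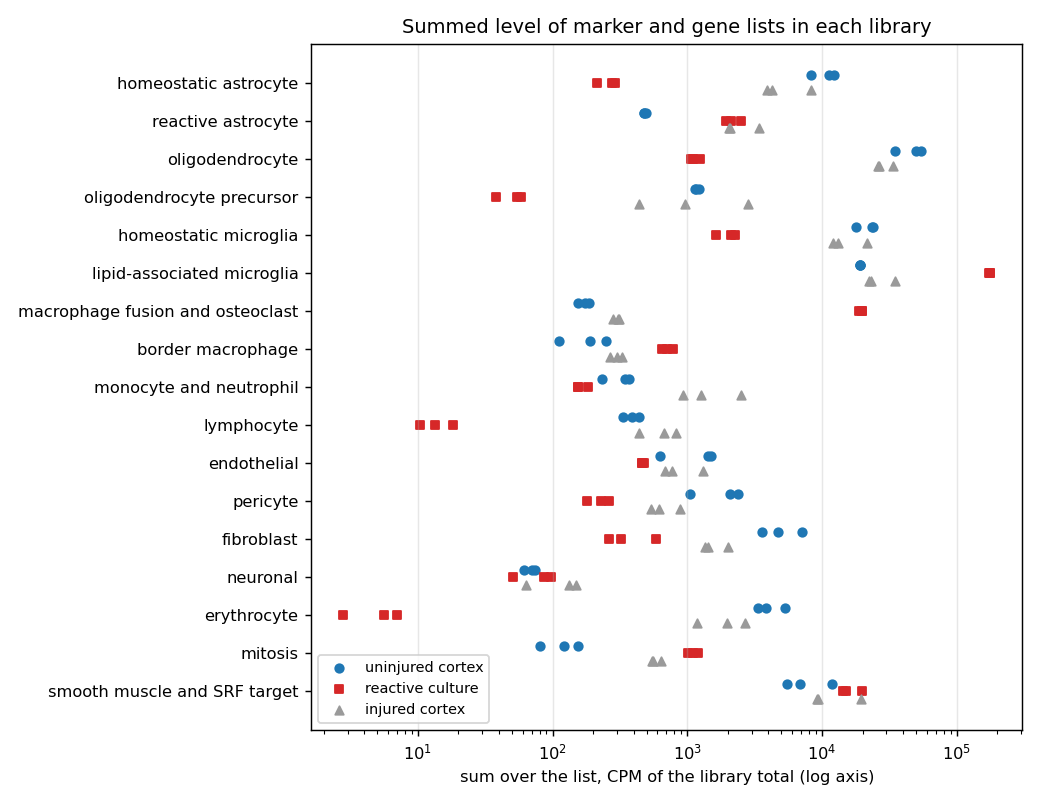
Sum over the genes of each list, as CPM of the library total on a log axis, with 1 point per library (circles uninjured cortex, squares reactive culture, triangles injured cortex). The lipid-associated microglia list sits at 174256 to 176954 in the cultures and 19035 to 19112 in uninjured cortex, and the homeostatic astrocyte list between 212 and 291 in the cultures and between 8329 and 12165 in uninjured cortex.

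Astrocyte genes of healthy cortex were lower without exception on the list used. All 20 were called lower (range -9.38 to -2.24, median -5.36), and all 20 remained so without uninjured replicates 2 and 3 and in each fit with 1 library left out. Aqp4, the water channel of astrocyte endfeet, was at 163, 129.8 and 114 CPM in uninjured cortex and 0.43, 1.15 and 0.783 CPM in the cultures (-7.41 ± 0.34, adjusted p = 2.3e-08). Slc1a3, a glutamate transporter, was at 1119, 646 and 929 CPM in uninjured cortex and 9.03, 8.11 and 11.2 CPM in the cultures (-6.57 ± 0.42, adjusted p = 1.4e-07), and the second transporter, Slc1a2, at 531, 683 and 974 CPM in uninjured cortex and 13.9, 28.7 and 45.9 CPM in the cultures (-4.63 ± 0.57, adjusted p = 2.9e-05). Aqp4 was near the detection limit in the cultures, while both transporters kept a low level. The junction protein gene Cldn10 (-9.38 ± 0.41), the neurotensin receptor gene Ntsr2 (-7.78 ± 0.40) and Aldh1l1 (-4.09 ± 0.32) followed. Atp1b2, which encodes the ACSA-2 antigen that the culture label names as present, was at 97.7, 103 and 136 CPM in uninjured cortex and 8.78, 5.92 and 6.03 CPM in the cultures (-4.02 ± 0.41, adjusted p = 6.0e-06), and L1cam, encoding the CD171 antigen it also names, at 0.773, 0.63 and 0.793 CPM in uninjured cortex and 6.26, 1.9 and 3.13 CPM in the cultures. The cultures thus had low levels of both antigens' transcripts, with L1cam above and Atp1b2 below uninjured cortex. The call for L1cam (2.36 ± 0.52, adjusted p = 0.0021) was lost without uninjured replicates 2 and 3, where its change was 2.27. S100b was the least changed member, at 84.3, 68.6 and 55.9 CPM in uninjured cortex and 9.95, 16.6 and 17.6 CPM in the cultures (-2.24 ± 0.28, adjusted p = 3.3e-05).

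Reactive astrocyte genes were mixed. Of 20, 12 were higher and 3 lower, with a median of 1.79, and the number lower was 1 without uninjured replicates 2 and 3 and 5 without injured replicate 1, without injured replicate 3, with the 2 groups fitted alone, without a filter, or with either upper-quartile scaling or library sizes without the 100 most abundant genes. Gfap, the intermediate filament that defines astrocyte reactivity, was at 19.9, 12.9 and 8.78 CPM in uninjured cortex and 5.28, 6.09 and 10.7 CPM in the cultures, with overlapping groups. Its call as lower (-0.92 ± 0.32, adjusted p = 0.027) was lost without uninjured replicate 1 and without culture replicates 1 or 2. In injured cortex Gfap stood at 310.5, 275 and 318 CPM. Vim, an intermediate filament shared by reactive glia, macrophages and mesenchymal cells, was at 22, 21 and 37 CPM in uninjured cortex and 1296, 1163 and 1573 CPM in the cultures (5.66 ± 0.36, adjusted p = 1.4e-07). Cd44, the hyaluronan receptor, was at 3.98, 3.73 and 4.03 CPM in uninjured cortex and 244, 215 and 281 CPM in the cultures (5.98 ± 0.36, adjusted p = 9.4e-08). Both are expressed by several cell types, and both groups were far apart. Timp1, an inhibitor of metalloproteinases, was at 0.221, 0.09 and 0.061 CPM in uninjured cortex and 419, 452 and 395 CPM in the cultures (11.66 ± 0.57, adjusted p = 2.8e-08; 12.31 without uninjured replicate 1 and 10.85 without uninjured replicates 2 and 3). It had 7 uninjured counts, a ratio of 2100 (95% exact counting interval 1020 to 5240). The membrane protein gene Emp1 had a change of 5.93 ± 0.36, adjusted p = 1.1e-07. Lcn2, induced in astrocytes and myeloid cells by inflammation, overlapped at 1.71, 8.05 and 4.64 CPM in uninjured cortex and 0.86, 1.73 and 2.5 CPM in the cultures (-1.53 ± 0.69, adjusted p = 0.07; -0.93 without uninjured replicate 2 and -0.05 without uninjured replicates 2 and 3). It was called lower without uninjured replicate 1, without any 1 injured library, without a filter, with the 2 groups alone and with upper-quartile scaling or library sizes without the 100 most abundant genes.

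Progenitor genes did not move as 1 block. Of 16, 5 were higher and 9 lower (6 lower without uninjured replicates 2 and 3). The neural stem cell factors were among the lower ones: Sox2 was at 32.9, 23.5 and 43.3 CPM in uninjured cortex and 1.72, 1.21 and 2.19 CPM in the cultures (-4.29 ± 0.53, adjusted p = 2.8e-05), Pax6 had a change of -5.15 ± 0.57, adjusted p = 1.2e-05, and the Notch target Hes5 of -7.25 ± 0.87, adjusted p = 2.2e-05. Sox9, a glial factor outside this list, was also lower (-3.67 ± 0.30, adjusted p = 9.1e-07). In contrast Nes, an intermediate filament of progenitors and dividing mesenchymal cells, was higher at 3.7, 6.34 and 18.9 CPM in uninjured cortex and 70.8, 61.4 and 92.2 CPM in the cultures (2.96 ± 0.55, adjusted p = 0.00062; 3.87 without uninjured replicate 3 and 4.33 without uninjured replicates 2 and 3). Tnc, an extracellular glycoprotein of wounds, was at 0.276, 0.81 and 2.13 CPM in uninjured cortex and 214, 106 and 139 CPM in the cultures (7.18 ± 0.59, adjusted p = 1.1e-06; 8.06 without uninjured replicate 3 and 9.07 without uninjured replicates 2 and 3), and Id3, a target of bone morphogenetic proteins, at 1.47.

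Oligodendrocyte genes were the list with the lowest median after the erythrocyte genes. All 18 were lower (median -7.44), and 17 without uninjured replicates 2 and 3. Mbp, a myelin protein whose exons are shared with a transcript made outside oligodendrocytes, was at 5301, 5637 and 2613 CPM in uninjured cortex and 248, 445 and 497 CPM in the cultures (-3.51 ± 0.46, adjusted p = 4.9e-05). The cultures were below every uninjured library. Mal (-8.34 ± 0.36), Ermn (-8.07 ± 0.37) and Trf, encoding the iron carrier transferrin (-2.87 ± 0.50), were lower too. Of 15 precursor genes 10 were lower (6 without uninjured replicate 1 and 5 with limma-voom), among them Olig1 (-7.00 ± 0.51), Sox10 (-5.10 ± 0.50) and Bcan (-5.99 ± 0.53). The median was -3.14, -1.83 without uninjured replicate 1, -3.85 with the 2 groups fitted alone and -4.52 without uninjured replicates 2 and 3. Cspg4, which pericytes share, was called higher (1.43 ± 0.55, adjusted p = 0.039; 2.38 without uninjured replicates 2 and 3). That call was lost without uninjured replicate 1, without uninjured replicate 2, without culture replicate 1, without culture replicate 3, without uninjured replicates 2 and 3, with the filter at 1 CPM and with upper-quartile scaling or library sizes without the 100 most abundant genes. Olig2, a factor of the whole lineage, was at 47.6, 86.4 and 46.1 CPM in uninjured cortex and 0.676, 0.517 and 0.704 CPM in the cultures (-6.57 ± 0.41, adjusted p = 1.3e-07).

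Vascular genes were more often lower than higher. Of 18 endothelial genes 8 were lower and 3 higher, against 33.1% and 27.5% of all genes. The median was -0.53, and 1 gene was higher with library sizes without the 100 most abundant genes. Among the lower members, Cldn5, a tight junction protein, was at 101, 26.2 and 88.1 CPM in uninjured cortex and 18.9, 15.3 and 15.3 CPM in the cultures (-2.12 ± 0.42, adjusted p = 0.001), the transporter Slco1a4 had a change of -7.65 ± 0.68, adjusted p = 2.0e-06 (-8.26 without uninjured replicates 2 and 3) and Ly6c1 of -3.51 ± 0.33, adjusted p = 2.7e-06. Among the higher ones were the junction gene Esam (1.57 ± 0.22, adjusted p = 8.6e-05) and Vwf, the von Willebrand factor (1.81 ± 0.48, adjusted p = 0.0065; 2.50 without uninjured replicate 3), whose call was lost with library sizes without the 100 most abundant genes. Flt1, the VEGF receptor 1 that endothelial cells and macrophages both use, was at 68.2, 26.5 and 96.2 CPM in uninjured cortex and 63.2, 51.3 and 43.6 CPM in the cultures, with overlapping groups (-0.27 ± 0.42, adjusted p = 0.59). Uninjured replicate 2 was the lowest of its group for Cldn5 and Flt1. Of 12 pericyte genes 8 were lower and 2 higher, and the median was -2.48 (-1.23 without uninjured replicates 2 and 3). The higher ones were Cspg4 and Anpep. Anpep was at 0.829, 1.66 and 2.5 CPM in uninjured cortex and 39.3, 14.2 and 18.9 CPM in the cultures (3.86 ± 0.48, adjusted p = 3.2e-05). Its change was 4.85 without uninjured replicates 2 and 3. Kcnj8, a potassium channel of pericytes, was at 62.5, 89.97 and 99.7 CPM in uninjured cortex and 1.29, 1.21 and 1.02 CPM in the cultures (-6.15 ± 0.28, adjusted p = 2.3e-08), and Vtn at 529, 977 and 789 CPM in uninjured cortex and 3.5, 5.23 and 4.23 CPM in the cultures (-7.46 ± 0.36, adjusted p = 2.8e-08). Pdgfrb, the receptor common to pericytes and fibroblasts, overlapped at 43.6, 69.9 and 107 CPM in uninjured cortex and 96.5, 49.2 and 61.7 CPM in the cultures (-0.09 ± 0.35, adjusted p = 0.84; 0.66 without uninjured replicates 2 and 3). Of 10 ependymal and choroid plexus genes only 5 passed the filter.

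Neuronal transcripts were scarce in both groups, with sums of 61.5 to 73.8 CPM of the library total (uninjured cortex) and 51.0 to 97.5 CPM (cultures). Of 15 tested, 8 were called higher in the cultures, and 3 without uninjured replicates 2 and 3. Camk2a, a kinase of excitatory neurons, was at 0.829, 0.855 and 0.488 CPM in uninjured cortex and 17.4, 47.8 and 38.1 CPM in the cultures (5.55 ± 0.50, adjusted p = 2.2e-06), and Nrgn, a postsynaptic calmodulin-binding protein, at 2.49, 1.53 and 1.59 CPM in uninjured cortex and 10.3, 28.5 and 27.2 CPM in the cultures (3.56 ± 0.42, adjusted p = 1.9e-05). Culture replicate 1 was the lowest culture for both. Map2, a dendritic microtubule protein, was lower (-2.09 ± 0.47, adjusted p = 0.0025), and Snap25, Syt1 and Tubb3 were not called. The sort took neurons out of the uninjured libraries only, and cannot be told apart from the groups.

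**Figure D3:**
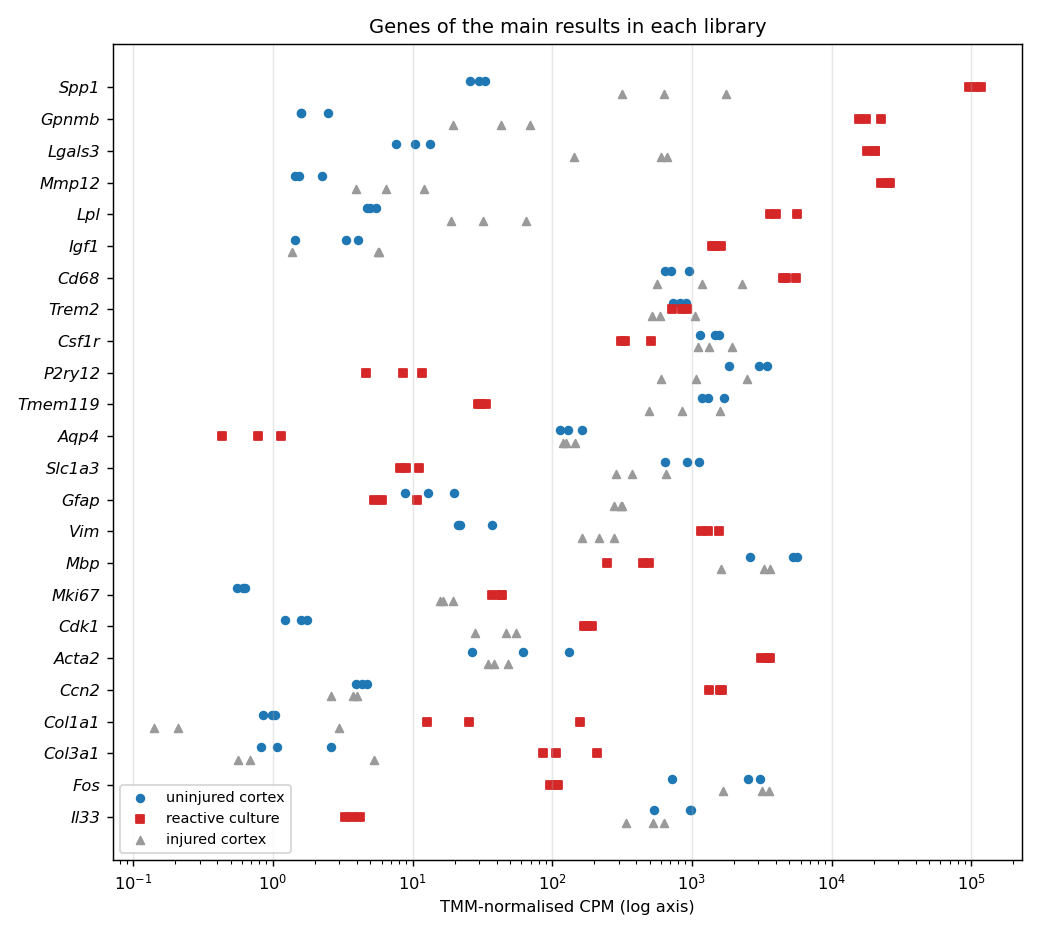
TMM-normalised CPM of 24 genes in each library on a log axis (circles uninjured cortex, squares reactive culture, triangles injured cortex; 3 points per group). Spp1, Gpnmb, Lgals3, Mmp12 and Lpl lie far to the right in the cultures, and Aqp4 and P2ry12 far to the left. Trem2 lies at a similar level in both groups with this scaling.

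Cell division genes were higher as a block. Of 24 mitosis genes 23 were higher (median 5.74), the same number as without uninjured replicates 2 and 3. All 24 DNA replication genes were higher (median 3.49), also without those libraries. Cdk1, the kinase that starts mitosis, was at 1.6, 1.75 and 1.22 CPM in uninjured cortex and 178, 193 and 169 CPM in the cultures (6.87 ± 0.32, adjusted p = 2.5e-08). Mki67, the antigen of cycling cells, was at 0.552, 0.63 and 0.61 CPM in uninjured cortex and 43.7, 36.8 and 43.4 CPM in the cultures (6.09 ± 0.26, adjusted p = 2.3e-08). Top2a, which untangles chromosomes, was at 0.718, 1.12 and 1.1 CPM in uninjured cortex and 77.6, 48.7 and 50.6 CPM in the cultures (5.90 ± 0.30, adjusted p = 3.2e-08). Each of the 3 genes was at or below 1.75 CPM in uninjured cortex and at 36.8 CPM or more in every culture. Rrm2, which supplies deoxynucleotides, reached 2.71, 1.98 and 1.65 CPM in uninjured cortex and 267, 289.5 and 210.5 CPM in the cultures (6.91 ± 0.30, adjusted p = 2.3e-08), and the replication licensing factor Mcm6 had a change of 4.05 ± 0.25, adjusted p = 1.1e-07. In injured cortex Mki67 stood at 15.6, 16.6 and 19.4 CPM. The exception among mitosis genes was Anln, an actin-binding protein of the cleavage furrow that mature oligodendrocytes also express and that stands on the oligodendrocyte list too. It was lower (-1.36 ± 0.31, adjusted p = 0.0025), a call lost without uninjured replicates 2 and 3. Of 15 tested genes of the G1 phase 11 were higher, with Ccnd2 at 42.7, 27.9 and 38.5 CPM in uninjured cortex and 314, 506 and 428 CPM in the cultures (3.52 ± 0.29, adjusted p = 1.0e-06), Cdk2 at 2.28 and Cdk6 at 1.75. Cdkn1b, which holds cells in rest, was called lower (-1.58 ± 0.49, adjusted p = 0.015), but not without culture replicate 2, without culture replicate 3 or without uninjured replicates 2 and 3 (-2.38 without culture replicate 1).

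Many cell cycle genes share a promoter element, the CHR, with the letters TTTGAA, read by the DREAM and MuvB complexes. The stretches just upstream of the start sites of Cdk1 (chr10:69352913-69353012, minus strand) and Top2a (chr11:99024190-99024389, minus strand) are shown as examples that hold it. They are RefSeq sequences of build GRCm38.p6, which is older than the build of the counts, written 5′ to 3′ and ending at the base before the start site. Capitals mark the CHR letters on either strand.
Cdk1: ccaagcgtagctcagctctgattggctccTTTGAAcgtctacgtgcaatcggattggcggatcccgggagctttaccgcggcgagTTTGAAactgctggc
Top2a: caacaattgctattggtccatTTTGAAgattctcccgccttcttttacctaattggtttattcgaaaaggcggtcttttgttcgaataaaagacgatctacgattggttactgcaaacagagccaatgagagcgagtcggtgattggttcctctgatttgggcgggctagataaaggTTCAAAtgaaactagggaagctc
The letters begin 71 and 15 bases before the start of Cdk1 and 179 and 23 bases before that of Top2a. Of 24 mitosis genes 20 matched a RefSeq window by symbol, and 8 of their 21 windows of 250 bases (38.1%) held TTTGAA on either strand, as did 15.99% of all 32851 windows. Those of Plk1, Birc5 and Ccnb1, among others, did not. A match of letters is a description and says nothing of binding.

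Contractile and cytoskeletal genes that SRF controls were higher. Of 21, 20 were called higher (median 3.40; 4.11 without uninjured replicates 2 and 3). Acta2, smooth muscle actin and the marker of myofibroblasts and mural cells, was at 61.8, 26.6 and 132 CPM in uninjured cortex and 3501, 3656 and 3118 CPM in the cultures (5.54 ± 0.54, adjusted p = 4.2e-06; 6.26 without uninjured replicate 3). Tpm1, tropomyosin, was at 68.5, 64.1 and 78.8 CPM in uninjured cortex and 1389, 1076 and 1112 CPM in the cultures (4.08 ± 0.26, adjusted p = 1.7e-07). Des, the intermediate filament of muscle and mural cells, was at 5.08, 6.12 and 7.87 CPM in uninjured cortex and 162, 136 and 192 CPM in the cultures (4.68 ± 0.28, adjusted p = 8.7e-08). The cultures were above uninjured cortex in all of these, and the uninjured libraries spread widely for Acta2. The exception was Actb, cytoplasmic actin, at 4740, 8566 and 2749 CPM in uninjured cortex and 12732, 7424 and 7379 CPM in the cultures with overlap (0.78 ± 0.53, adjusted p = 0.22). Tagln, which usually accompanies Acta2, had only 3.5, 4.2 and 3.13 CPM in the cultures. Its annotated end overlaps that of Pcsk7 on the opposite strand, and how reads in overlapping genes were counted is not given in the sources used here, so its level is uncertain. Actin genes resemble one another closely and may exchange reads.

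YAP and TEAD targets were divided. Of 22, 11 were higher and 1, Wwc1, lower (-2.12 ± 0.40, adjusted p = 0.00075), with a median of 0.64. The number lower was 3 without uninjured replicates 2 and 3, without a filter and with library sizes without the 100 most abundant genes, and 2 with upper-quartile scaling, with DESeq2, with the 2 groups alone and without uninjured replicate 2. The leading members were large. Ccn2, a matricellular protein and the most used readout of YAP, was at 3.92, 4.36 and 4.7 CPM in uninjured cortex and 1648, 1588 and 1332 CPM in the cultures (8.46 ± 0.33, adjusted p = 2.0e-08), and was low in injured cortex, at 4.01, 2.62 and 3.78 CPM. Ccn1, its relative, was at 136, 46.3 and 66.5 CPM in uninjured cortex and 947, 1004 and 823 CPM in the cultures (3.48 ± 0.38, adjusted p = 9.4e-06; 2.76 without uninjured replicates 2 and 3). Myof, a membrane repair protein, was at 0.884, 0.675 and 1.16 CPM in uninjured cortex and 101, 59.2 and 86.3 CPM in the cultures (6.51 ± 0.34, adjusted p = 3.8e-08). Ankrd1, a nuclear ankyrin-repeat protein, was at 0, 0.27 and 0.061 CPM in uninjured cortex and 16.5, 25.5 and 21.9 CPM in the cultures (7.39 ± 0.70, adjusted p = 3.4e-06; 9.21 without uninjured replicate 2 and 11.67 without uninjured replicates 2 and 3), from 7 uninjured counts, a ratio of 106 (95% exact counting interval 51.1 to 264). The members that were not called include Amotl2, Lats2 and Amotl1, which act in feedback on the pathway.

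TEAD proteins read the MCAT element, CATTCC. The upstream stretches of Ccn1 (chr3:145649986-145650105, minus strand) and Ankrd1 (chr19:36119845-36120064, minus strand) are shown with it in capitals wherever either strand holds it, from the same RefSeq table and build.
Ccn1: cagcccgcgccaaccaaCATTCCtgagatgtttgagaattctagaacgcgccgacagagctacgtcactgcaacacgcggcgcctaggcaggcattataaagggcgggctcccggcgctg
Ankrd1: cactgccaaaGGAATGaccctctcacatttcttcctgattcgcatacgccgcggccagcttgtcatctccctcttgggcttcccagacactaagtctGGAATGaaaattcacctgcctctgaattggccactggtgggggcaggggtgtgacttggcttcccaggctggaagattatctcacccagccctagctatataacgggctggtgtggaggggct
The letters begin 103 bases before the start of Ccn1 and 210 and 123 bases before that of Ankrd1. In the target list, 7 of 18 windows of 250 bases (38.89%, from 17 matched genes) held them on either strand, and 12.64% of all windows did. The window of Myof lacked them. The CArG element that SRF reads was in 5 of 17 windows of the contractile list (29.41%) and in 1.47% of all windows. The windows that held it were those of Myl9, Cnn2, Actg1, Vcl and Srf. Those of Acta2, Tpm1 and Des did not.

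Matrix genes were higher in nearly all cases. Of 24 fibrillar and basement membrane genes 23 were higher (median 4.05; 4.70 without uninjured replicates 2 and 3), and Sparc was not called. P4ha2, which hydroxylates collagen, was at 5.74, 4 and 5.18 CPM in uninjured cortex and 107, 129 and 111 CPM in the cultures (4.54 ± 0.28, adjusted p = 1.2e-07). Fn1, fibronectin, was at 9.61, 7.92 and 24.3 CPM in uninjured cortex and 306, 179.6 and 236 CPM in the cultures (4.11 ± 0.41, adjusted p = 4.9e-06; 4.77 without uninjured replicate 3). Bgn, the proteoglycan biglycan, was at 7.73, 14.5 and 16.4 CPM in uninjured cortex and 501, 471 and 503 CPM in the cultures (5.25 ± 0.31, adjusted p = 8.5e-08; 5.98 without uninjured replicates 2 and 3). For each gene the groups did not overlap. Lox, which crosslinks collagen, was at 0.387, 0 and 0.244 CPM in uninjured cortex and 249, 168 and 129 CPM in the cultures (9.80 ± 0.62, adjusted p = 1.3e-07; 10.68 without uninjured replicate 1, 9.12 without uninjured replicate 2 and 8.85 without uninjured replicates 2 and 3; 10.42 with limma-voom). Of 19 fibroblast genes tested 11 were higher and 4 lower (2 without uninjured replicates 2 and 3), with a median of 1.74. Col1a1, the main fibrillar collagen, was at 0.994, 0.855 and 1.04 CPM in uninjured cortex and 159, 12.7 and 25.4 CPM in the cultures (6.09 ± 1.13, adjusted p = 0.00063; 4.32 without culture replicate 1; 5.25 with limma-voom), and Col3a1 at 0.829, 1.08 and 2.62 CPM in uninjured cortex and 209, 85.7 and 106 CPM in the cultures (6.49 ± 0.82, adjusted p = 3.3e-05; 7.10 without uninjured replicate 3 and 7.32 without uninjured replicates 2 and 3). Culture replicate 1 held by far the most Col1a1 and Col3a1, and also of Fbln2, at 129, 54.8 and 61.9 CPM against 0.994, 1.3 and 1.52 CPM in uninjured cortex (6.00 ± 0.46, adjusted p = 6.1e-07). The fibroblast list's summed CPM of the library total was nevertheless lower in the cultures, at 261 to 588 against 3606 to 7107. Ptgds, a prostaglandin synthase of meningeal cells and oligodendrocytes, made up 93.95% to 97.42% of the sum in uninjured cortex and at most 1.20% in the cultures, at 3976, 5786 and 2522 CPM in uninjured cortex and 2.21, 4.37 and 3.68 CPM in the cultures (-10.22 ± 0.53, adjusted p = 3.5e-08).

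Signals and factors linked to mesenchymal change were mixed, beside 27.5% of all genes called higher and 33.1% called lower. Of 22 TGF-β and BMP genes 9 were higher and 4 lower (median 0.69). The ligands Inhba, an activin subunit (5.98 ± 0.43; 6.89 without uninjured replicates 2 and 3), and Tgfb3 (4.09 ± 0.27, adjusted p = 1.9e-07) were higher, and Ltbp2, which sits with latent TGF-β in the matrix, had 0 uninjured counts and was at least 121-fold higher. On the receiving side Tgfbr1 was lower, at 196, 259 and 367 CPM in uninjured cortex and 83.6, 52.8 and 48.6 CPM in the cultures (-2.15 ± 0.32, adjusted p = 0.00011), as was the signal transducer Smad3 (-2.71 ± 0.50; -1.64 without uninjured replicates 2 and 3), while the inhibitory Smad6 was higher (3.23 ± 0.40). Of 16 transition factors and adhesion genes 7 were higher and 3 lower (5 lower with library sizes without the 100 most abundant genes), with a median of 1.21 (1.79 without uninjured replicate 3, 1.83 without uninjured replicates 2 and 3). Itgb1, the shared chain of matrix-binding integrins, was at 124, 108 and 97 CPM in uninjured cortex and 1396, 1035 and 831 CPM in the cultures (3.31 ± 0.28, adjusted p = 1.4e-06). Ncam1, the neural adhesion molecule, was lower (-3.18 ± 0.25, adjusted p = 8.5e-07), and so was Zeb1 (-1.49 ± 0.25, adjusted p = 0.00032).

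Extracellular proteases gave some of the highest changes. Of 19 proteases and inhibitors 13 were higher and 3 lower, with a median of 2.50, and 9 higher with a median of 1.68 without uninjured replicates 2 and 3. Mmp13, a collagenase, had 0.11, 0.135 and 0 CPM in uninjured cortex and 502, 324 and 430.1 CPM in the cultures (12.12 ± 0.63, adjusted p = 3.6e-08), from 5 uninjured counts, which give a ratio per total count of 2880 (95% exact counting interval 1240 to 8880). Mmp3, stromelysin 1, was at 0.276, 0.18 and 0 CPM in uninjured cortex and 39.5, 48.1 and 52.1 CPM in the cultures (8.15 ± 0.54, adjusted p = 2.1e-07; 8.76 without uninjured replicate 1 and 7.36 without uninjured replicates 2 and 3), from 9 uninjured counts, a ratio of 178 (93.7 to 390). Mmp10, stromelysin 2, had 0 counts in uninjured cortex and 31.4, 32.9 and 42.5 CPM in the cultures. None of the 3 exceeded 0.276 CPM in an uninjured library. Plaur, the urokinase receptor, was at 173, 21.5 and 26.6 CPM in uninjured cortex and 605, 1041 and 913 CPM in the cultures (3.53 ± 0.81, adjusted p = 0.0027; 5.16 without uninjured replicate 1 and 2.29 without uninjured replicates 2 and 3; 4.17 with limma-voom), with uninjured replicate 1 well above the other 2, and its call was lost without uninjured replicates 2 and 3. The lower members included Timp4 (-4.48 ± 0.30, adjusted p = 2.4e-07), an inhibitor that astrocytes express, and Adamts4 (-3.10 ± 0.36, adjusted p = 1.7e-05), which cuts proteoglycans.

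Metalloproteinase promoters are known for AP-1 elements, TGANTCA, close to the start site. Several of the genes with large changes lie in 1 cluster on chromosome 9, and for 4 of them 100 bases upstream of the start are shown with these letters in capitals: Mmp12 (chr9:7347274-7347373), Mmp13 (chr9:7272414-7272513), Mmp3 (chr9:7445722-7445821) and Mmp10 (chr9:7502242-7502341), all on the plus strand of GRCm38.p6, from RefSeq.
Mmp12: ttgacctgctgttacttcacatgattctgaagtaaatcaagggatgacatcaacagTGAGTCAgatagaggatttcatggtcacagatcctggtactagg
Mmp13: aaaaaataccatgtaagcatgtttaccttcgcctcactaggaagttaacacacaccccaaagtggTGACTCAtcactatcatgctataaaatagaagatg
Mmp3: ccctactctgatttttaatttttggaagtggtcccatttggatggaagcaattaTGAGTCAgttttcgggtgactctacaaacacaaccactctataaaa
Mmp10: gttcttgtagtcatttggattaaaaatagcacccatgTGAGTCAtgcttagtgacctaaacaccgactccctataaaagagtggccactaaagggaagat
The letters begin 44, 35, 46 and 63 bases before the start of Mmp12, Mmp13, Mmp3 and Mmp10. Mmp12 has a further window in the table, with another start site, that lacks them. Of 11 windows of the protease list 4 (36.36%) held them on either strand, from Mmp13, Mmp3, Mmp10 and Plaur, and 6.75% of all windows did. The motif and the genes shown were chosen after the values were seen.

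The AP-1 genes themselves did not move together. Of 18 immediate early genes 14 were lower (median -2.75), and 17 without uninjured replicates 2 and 3. Fos, a subunit of AP-1 induced within minutes of a stimulus, was at 3088, 2536 and 719 CPM in uninjured cortex and 111, 107 and 97.1 CPM in the cultures (-4.33 ± 0.53, adjusted p = 2.8e-05). Fosb was at 48, 81.1 and 44.2 CPM in uninjured cortex and 0.307, 0.172 and 0.391 CPM in the cultures (-7.65 ± 0.49, adjusted p = 1.4e-07), and Jun had a change of -3.42 ± 0.36, adjusted p = 7.4e-06 (-4.01 without uninjured replicates 2 and 3). The cultures were below every uninjured library for all 3. Uninjured replicate 3 had the lowest Fos of its group. The uninjured cells were sorted just before lysis and the cultures were not, which cannot be told apart from the groups here. Of 7 late AP-1 genes 3 were higher (1 without uninjured replicates 2 and 3), with a median of 0.67 (1.32 without uninjured replicate 1, -0.12 without uninjured replicates 2 and 3). Fosl1, the subunit Fra-1 of migrating cells, was at 1.44, 0.045 and 0 CPM in uninjured cortex and 6.57, 9.49 and 7.9 CPM in the cultures (4.02 ± 0.97, adjusted p = 0.0037; 7.97 without uninjured replicate 1, 3.43 without uninjured replicate 2 and 2.46 without uninjured replicates 2 and 3; 5.79 with limma-voom and 4.62 with a block for the replicate number). Its uninjured values spread from 0 to 1.44 CPM, so the size of the change is uncertain.

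Inflammatory genes were mixed, and their counts stand beside 27.5% of all genes called higher and 33.1% called lower. Of 21 cytokines and chemokines 9 were lower and 5 higher (3 higher without uninjured replicates 2 and 3), and 7 were not called. Il33, an alarmin of oligodendrocytes and astrocytes, was at 980.5, 971 and 532 CPM in uninjured cortex and 4.18, 3.28 and 3.68 CPM in the cultures (-7.80 ± 0.41, adjusted p = 4.3e-08). Il18, an inflammasome cytokine, was at 138, 127 and 159.8 CPM in uninjured cortex and 11.8, 11.2 and 10.1 CPM in the cultures (-3.68 ± 0.20, adjusted p = 5.3e-08). Il1b, the central macrophage cytokine, was at 113, 51.6 and 18.1 CPM in uninjured cortex and 0.307, 0.575 and 1.02 CPM in the cultures (-6.62 ± 0.80, adjusted p = 2.3e-05; -5.80 without uninjured replicate 1 and -7.52 without uninjured replicates 2 and 3) and stood at 2437, 1157 and 725 CPM in injured cortex. The cultures were below uninjured cortex in all 3 genes. Il11, a cytokine of activated fibroblasts, was higher (3.52 ± 0.38, adjusted p = 8.7e-06), as was the chemokine Ccl9 at 109, 97 and 63.9 CPM in uninjured cortex and 475, 532 and 588 CPM in the cultures (2.57 ± 0.40, adjusted p = 0.00018). Of 16 antigen presentation genes 7 were lower and 2 higher (0 higher and 5 lower without uninjured replicates 2 and 3, and 4 higher with the 2 groups alone or without injured replicate 3). Cd74, the chaperone of MHC class II, was at 230.3, 231 and 286 CPM in uninjured cortex and 20.9, 25.9 and 39.99 CPM in the cultures (-3.11 ± 0.45, adjusted p = 9.7e-05), and H2-DMa, which loads class II, had a change of -2.00 ± 0.36, adjusted p = 0.00056. H2-D1, a class I chain, was higher at 1064, 538 and 520.4 CPM in uninjured cortex and 2545, 3449 and 3841 CPM in the cultures (2.21 ± 0.49, adjusted p = 0.0021; 1.61 without uninjured replicates 2 and 3), a call lost without uninjured replicates 2 and 3; its near-identical relatives make it uncertain. Of 19 interferon-stimulated genes 6 were higher and 2 lower, and 1 and 1 without uninjured replicates 2 and 3. Oas1a had the highest change (3.58 ± 0.60, adjusted p = 0.00031).

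Complement genes went both ways, with 5 of 14 higher and 5 lower, near the shares of all genes (27.5% and 33.1%). Their median was -0.11 (0.66 without uninjured replicates 2 and 3). C1qa, the recognition chain made by microglia, was at 1457, 1899 and 1410 CPM in uninjured cortex and 449, 448 and 270.1 CPM in the cultures (-2.03 ± 0.33, adjusted p = 0.00023). Cfp, properdin, which stabilises the alternative pathway, was at 5.74, 6.57 and 8.72 CPM in uninjured cortex and 254, 351 and 279.9 CPM in the cultures (5.40 ± 0.50, adjusted p = 2.6e-06), and the C1 inhibitor gene Serping1 at 7.68, 5.94 and 9.03 CPM in uninjured cortex and 143, 217 and 178 CPM in the cultures (4.57 ± 0.34, adjusted p = 5.4e-07).

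Energy and stress genes were higher for the most part. Of 19 glycolysis and hypoxia genes 17 were higher (median 2.32). Ldha, lactate dehydrogenase A, was at 300.2, 234 and 216 CPM in uninjured cortex and 4561, 4430 and 4155 CPM in the cultures (4.13 ± 0.38, adjusted p = 2.4e-06), and the oxygen sensor Egln3 at 1.27, 1.12 and 1.22 CPM in uninjured cortex and 33.7, 34.3 and 26 CPM in the cultures (4.70 ± 0.28, adjusted p = 9.1e-08). Ndrg1, hypoxia-inducible but abundant in myelinating cells, was lower (-3.94 ± 0.27, adjusted p = 2.8e-07). Of 18 antioxidant and iron genes 13 were higher and 2 lower (median 2.25), the latter 1 without uninjured replicate 1, without culture replicate 1, without culture replicate 3 or without uninjured replicates 2 and 3. Prdx1 was at 1016, 1296 and 943 CPM in uninjured cortex and 17336, 16634 and 17716 CPM in the cultures (3.99 ± 0.37, adjusted p = 2.7e-06), and Gclm, a subunit of glutathione synthesis, at 46.7, 60.7 and 51.9 CPM in uninjured cortex and 729.9, 754 and 669 CPM in the cultures (3.76 ± 0.24, adjusted p = 1.3e-07). Hmox1, which degrades haem, was at 36.1, 15.8 and 8.17 CPM in uninjured cortex and 3507, 2656 and 2189 CPM in the cultures (7.12 ± 0.60, adjusted p = 1.3e-06; 7.87 without uninjured replicate 1 and 6.26 without uninjured replicates 2 and 3). The ferritin chains were abundant in both groups and higher in the cultures, with Fth1 at 8083, 12459 and 6997 CPM in uninjured cortex and 48011, 48002 and 45137 CPM in the cultures (2.36 ± 0.48, adjusted p = 0.0012) and Ftl1 at 3.54 ± 0.50. Mt1, a metallothionein, was lower (-1.23 ± 0.24, adjusted p = 0.001). Lysosomal genes were higher in 17 of 22 cases (10 without uninjured replicates 2 and 3), with a median of 1.48. The proton pump subunits Atp6v1a (2.72 ± 0.23, adjusted p = 1.4e-06) and Atp6v1b2 (2.66 ± 0.28, adjusted p = 8.2e-06) were among them, whereas the protease gene Ctss was at 6852, 5869 and 5683 CPM in uninjured cortex and 8641, 9713 and 8387 CPM in the cultures, with a change of 0.54 ± 0.41, adjusted p = 0.27.

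Other metabolic lists were less uniform. Of 19 cholesterol genes 12 were lower (median -0.87), with Fdft1, which commits isoprenoids to sterols, at 234, 147 and 152 CPM in uninjured cortex and 30.8, 34 and 34 CPM in the cultures (-2.43 ± 0.23, adjusted p = 3.4e-06) and Hmgcs1 at -1.37. Abca1, the cholesterol exporter, was the 1 member called higher (0.65 ± 0.25, adjusted p = 0.036), a call lost without uninjured replicate 1, without uninjured replicate 2, without any 1 culture, without uninjured replicates 2 and 3, with the filter at 1 CPM and with upper-quartile scaling or library sizes without the 100 most abundant genes. Of 18 genes of the amino acid response 10 were higher and 4 lower. Asns, asparagine synthetase, was at 5.3, 2.47 and 2.74 CPM in uninjured cortex and 109, 121 and 120.3 CPM in the cultures (5.06 ± 0.33, adjusted p = 1.9e-07; 4.45 without uninjured replicates 2 and 3), while Phgdh, the entry enzyme of serine synthesis, which astrocytes express strongly, was lower (-1.96 ± 0.23, adjusted p = 2.0e-05). Of 15 p53 targets 10 were higher (median 1.30), including Ccng1 (3.07 ± 0.30, adjusted p = 3.8e-06) and Mdm2, the brake on p53 (2.71 ± 0.26, adjusted p = 4.0e-06); 2 were lower with upper-quartile scaling, with library sizes without the 100 most abundant genes and with the 2 groups alone. All 20 cytosolic ribosomal protein genes were higher (median 1.48, range 0.95 to 2.39), 18 to 20 of them under the other scalings. Their processed copies across the genome make single values uncertain. Of 20 nuclear genes of the respiratory chain 10 were higher, 5 without uninjured replicates 2 and 3, 5 with library sizes without the 100 most abundant genes and 6 without culture replicate 2. Of 13 mitochondrially encoded genes 5 were higher, and 1 without uninjured replicates 2 and 3; their summed CPM of the library total overlapped, with 7106 to 10385 for uninjured cortex against 5298 to 9749 for the cultures.

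Of 23 growth factors and receptors tested 13 were higher and 5 lower (3 lower without uninjured replicate 3 or without culture replicate 1, 2 without uninjured replicates 2 and 3). The neurotrophin gene Bdnf was among the higher ones, at 0.994, 1.12 and 0.61 CPM in uninjured cortex and 31.6, 51.5 and 49.6 CPM in the cultures (5.58 ± 0.37, adjusted p = 2.1e-07). Igfbp7, a secreted binding protein, was at 124, 132 and 101 CPM in uninjured cortex and 1218, 1212 and 1186 CPM in the cultures (3.34 ± 0.25, adjusted p = 5.1e-07). Fgfr2, a growth factor receptor of astrocytes and oligodendrocytes, was lower (-4.69 ± 0.26, adjusted p = 5.3e-08), and so was its ligand Fgf1 (-3.29 ± 0.27, adjusted p = 1.0e-06). Of 20 potassium channel and transmitter receptor genes 17 were lower (median -4.34; -3.67 without uninjured replicates 2 and 3), among them the metabotropic glutamate receptor Grm3 (-8.49 ± 0.40) and the GABA receptor subunit Gabrb1 (-7.13 ± 0.47). Kcnn4, the calcium-activated channel of macrophages and dividing cells, was the exception at 2.6, 2.43 and 2.56 CPM in uninjured cortex and 65.6, 73.3 and 109.6 CPM in the cultures (5.03 ± 0.41, adjusted p = 1.1e-06). Of 20 axon guidance genes 8 were lower and 4 higher, near the shares of all genes, the higher ones including the semaphorin receptors Nrp1 (2.78 ± 0.23, adjusted p = 1.1e-06) and Nrp2 (2.75 ± 0.25, adjusted p = 2.5e-06). Of 15 proteoglycan and hyaluronan genes tested 8 were higher, with Sdc1, a heparan sulfate carrier, at 0.773, 0.54 and 1.28 CPM in uninjured cortex and 123, 107 and 166 CPM in the cultures (7.27 ± 0.45, adjusted p = 1.2e-07), and 4 lower, with Hapln1, the link protein of perineuronal matrix, at 29.8, 18.6 and 24 CPM in uninjured cortex and 0.184, 0.115 and 0.0783 CPM in the cultures (-7.48 ± 0.54, adjusted p = 4.1e-07).

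**Figure D4:**
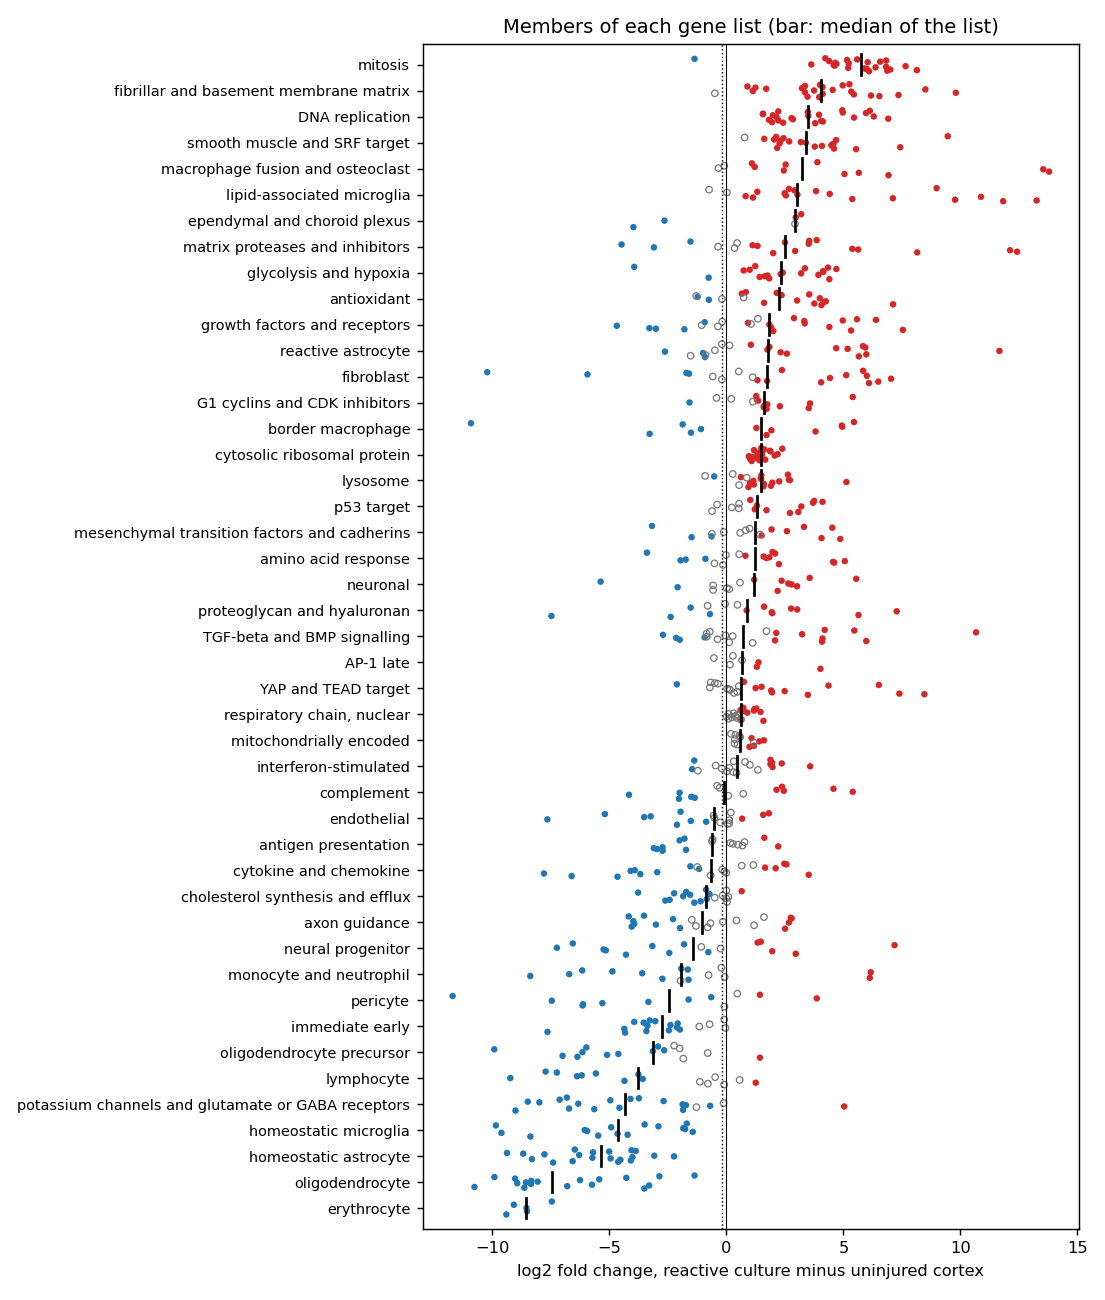
Log2 fold change, reactive culture minus uninjured cortex (x axis), of every tested member of the 45 gene lists (rows, ordered by median; black bar, median of the list; dotted line, median of all genes at -0.17). Red and blue points are called higher and lower at an adjusted p under 0.05 and open points are not called. Mitosis genes have the highest median, 5.74, and erythrocyte genes the lowest, -8.55.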

How the data were processed

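The deposited values are raw counts of reads per gene in 9 libraries; per the submitters' processing notes, reads were aligned with HISAT2 to GRCm39, while the counting tool, annotation and strand setting are not given. Groups follow the sample titles.

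The analysis used edgeR 4.0.16 under R 4.3.3, with filterByExpr and TMM at their defaults, then a quasi-likelihood fit of all 3 groups with 6 residual degrees of freedom and Benjamini-Hochberg adjustment over 18093 genes, with a call at an adjusted p under 0.05. The script was checked on simulated data in which few genes changed, as many up as down. That check does not cover the scaling where most genes change. Alternatives were other scalings and filters, DESeq2 1.42.0, limma-voom (limma 3.58.1), the 2 groups alone, glmTreat with a minimum log2 fold change of 1, a replicate block, and libraries left out. A group with 0 counts was set to a floor of 3 counts; intervals (95%, exact) and floors cover counting error only.

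The members and the 45 gene lists (790 genes, 770 tested, 5 matched by an older symbol) were chosen with earlier results of these data known. Named genes followed a rule: the 12 largest changes each way among calls that reached a mean of 10 CPM in the higher group, without overlap of the groups or a predicted gene name; a panel; up to 4 called members of each list and 2 exceptions; and the 10 most abundant genes per group. A few genes the rule names are not reported here. Outside it, Igf1, Cd68, Csf1r, Trem2, Tyrobp, Slc1a2, Slc1a3, Aldh1l1, Col3a1, Ccn1, Plaur, Ctsk, Nfatc1, Mmp14, C1qa, Fn1, Tagln, Flt1 and Fos were chosen after their values were seen. So were Dcstamp and Ocstamp, and members named only as not called. Promoter windows were matched by symbol to RefSeq GRCm38.p6, and no other coordinates were used. Motifs were also scanned for the antioxidant (TGACNNNGC), lysosome (CACGTG) and amino acid response (TGATGNAA) lists. They were in 19.05%, 30.43% and 21.05% of the windows of those lists, and in 10.16%, 6.02% and 3.45% of all windows. P-values measure the spread between these libraries.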

Additional observations from a re-analysis of the deposited data

How the results depend on the processing

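Of the alternatives to the comparison's 10954 calls (4969 higher, 5985 lower), 2 moved a count by more than 1.5 times. Testing against a log2 fold change of 1 left 6350 calls (2381 higher, 3969 lower), and leaving out uninjured replicates 2 and 3 left 6997 (3043 higher, 3954 lower). With each library left out in turn the calls ranged from 9551 to 12147, those higher from 4190 to 5331 and those lower from 5314 to 6816. No gene was called in the opposite direction under any alternative. The share of calls that were higher was 45.4%, 38.4% with upper-quartile scaling and 31.6% with library sizes without the 100 most abundant genes. With the replicate number as a block the calls were 11060. Deviations of same-numbered libraries from their group means had correlations of -0.013, -0.078 and 0.095. Those of differently numbered libraries ranged from -0.082 to 0.099. No pairing by number was seen, but these values cannot show whether libraries share animals or batches. Of 268 named genes called, 233 kept the call under every alternative and 0 reversed; of the 35 that did not, 29 lost it without uninjured replicates 2 and 3 and 28 against a log2 fold change of 1. The cause was not tested. Depth limits genes with few counts in one group: Hapln1, Hes5, Hapln2 and Olfml1 had 6, 6, 10 and 7 counts in the cultures, so the size of their fitted changes is uncertain.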
